A study of Mus musculus with 24 samples.

Results

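The MHC class II presentation genes are the genes for the proteins that load peptides taken up from outside the cell and show them to CD4+ T cells. They were taken by gene symbol (10 of 24421 genes in the count table): H2-Aa, H2-Ab1 and H2-Eb1 for chains of the presenting molecules, Cd74 for the invariant chain, H2-DMa, H2-DMb1 and H2-DMb2 for the peptide exchange factor, H2-Oa and H2-Ob for its inhibitor, and Ciita for the coactivator of the others. All 10 had enough counts to be tested. Bulk RNA sequencing covered sciatic nerve of mice that all carried the genotype Nf1 flox/flox PostnCre+, in which Cre recombinase under control of Postn, a gene of the Schwann cell lineage and of fibroblasts, acts on floxed Nf1. The labels give plexiform neurofibroma, a benign nerve sheath tumour, as the stage of every library, and they give neither age nor strain. The treatment lasted 1 week and consisted of LY3214996, an inhibitor of ERK1/2 (ERKi), of abemaciclib, an inhibitor of CDK4/6 (CDKi), of both agents (combination), or of vehicle, with 6 libraries in each of the 4 groups. There was no group with intact Nf1. The labels do not state that each library is a separate animal; p-values therefore measure no more than the spread among these libraries, which may be technical.

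Class II molecules are pairs of an alpha and a beta chain. H2-Aa pairs with H2-Ab1 to form the A molecule, and H2-Eb1 pairs with the product of H2-Ea to form the E molecule. In the endoplasmic reticulum Cd74 fills the groove of both and guides them to endosomes, where cathepsins cut it down to a fragment that H2-DM exchanges for antigenic peptide and where H2-O restrains H2-DM. Dendritic cells and B cells express the pathway constitutively, and interferon gamma induces it in macrophages and many other cells through Ciita. In peripheral nerve, resident macrophages are the best known source. The reference strain C57BL/6J carries a deletion at the H2-Ea promoter and makes no E molecule, and the reference annotation lists the gene as H2-Ea-ps.

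Of the 10 genes, 8 lie together in the MHC on chromosome 17 between 34092340 and 34316674 (GRCm38, GENCODE M21 annotation), from H2-Oa to H2-Eb1. Their shared regulation is read from a block of boxes just upstream of the start, here the RefSeq start, in which the X box is bound by RFX and the Y box by NF-Y, the factors to which Ciita attaches. Windows of 54 bases that hold these letters in RefSeq (GRCm38.p6) are shown because some members varied together across libraries and others did not. Capitals mark the letters ATGATGC from the end of the X box, where present, and TGATTGG of the Y box; both were chosen after the sequences had been seen and searched on either strand, and they do not overlap here. They are given 5′ to 3′ along the gene, in the order of the chromosome. GENCODE M21 starts H2-DMb2 and H2-DMb1 upstream of their windows, and H2-Oa within its window.
H2-Oa (chr17:34092296-34092349, plus strand): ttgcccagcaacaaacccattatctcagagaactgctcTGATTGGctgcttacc
H2-DMb2 (chr17:34145119-34145172, plus strand): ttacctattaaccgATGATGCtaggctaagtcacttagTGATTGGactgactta
H2-DMb1 (chr17:34153090-34153143, plus strand): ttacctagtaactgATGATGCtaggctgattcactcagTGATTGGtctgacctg
H2-Ob (chr17:34238808-34238861, plus strand): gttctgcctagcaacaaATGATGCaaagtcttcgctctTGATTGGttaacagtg
H2-Aa (chr17:34287858-34287911, minus strand): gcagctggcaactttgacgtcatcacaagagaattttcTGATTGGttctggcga
H2-Eb1 (chr17:34305768-34305821, plus strand): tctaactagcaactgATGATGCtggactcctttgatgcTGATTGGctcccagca

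The Y box letters were present in 6 of the 7 members whose promoters were searched, and in 7.82% of all 32851 promoters of the same length of 300 bases. H2-Ab1, Cd74 and Ciita were not among the members searched, and Cd74 was left out by choice. The X box letters were present in H2-DMb2, H2-DMb1, H2-Ob and H2-Eb1 and in 2.46% of all promoters. Both sets of letters occurred together in 57 promoters of the whole table (0.174%), and 4 of these were the promoters of those members. The stretch between the boxes was 17 bases in H2-DMb2 and H2-DMb1, 16 bases in H2-Eb1 and 14 bases in H2-Ob. H2-DMb1 and H2-DMb2, which are paralogs, were identical at 69.3% of 300 positions when aligned. The other pairs of members searched ran from 36.3% to 51.0% in the same alignment. H2-DMa had no match to the Y box letters, and H2-Oa, H2-Aa and H2-DMa had none to the X box letters. This says only that these exact letters are not in the promoter searched, not that the box is missing.

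Total counts per library ranged from 5391543 to 42321550, and 3 counts, taken as the floor of detection, corresponded to 0.0709 to 0.556 CPM. Liver transcripts stood out in 3 libraries (ERKi 3, CDKi 1 and CDKi 3), in which Alb was between 3155 and 4543 CPM against at most 1.61 CPM elsewhere. Neuronal transcripts were abundant in 18 libraries and scarce in 6, by a mean above or below 6 log2 CPM over a neuron list. Among the cell types that carry class II, all 16 macrophage markers were detected, with a summed level of 361 to 1075 CPM over the 24 libraries. The 10 B cell markers summed to 2.21 to 12.9 CPM, and Ms4a1 and Pax5 each had a median of 0. The 12 dendritic cell markers summed to 94.8 to 245 CPM. By median, Fscn1 was at 104.8 CPM, Siglech at 17.4, Flt3 at 12.6, Zbtb46 at 9.77 and Cd209a at 1.92. The others were lower, with Itgax at 0.861, Batf3 at 0.791, Clec10a at 0.500, Clec9a at 0.249, Xcr1 at 0.101, Cd207 at 0.0232 and Ccr7 at 0.0200. Levels in whole tissue do not separate fewer cells of a type from less RNA per cell.

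No member passed the test after either drug or both. The CPM ranges of each treated group overlapped those of vehicle for every member, where 0.24% of all genes did not overlap in ERKi, 0.091% in CDKi and 0.858% for the combination. Of the members, 7 of 10 were on the lower side in ERKi, 8 of 10 in CDKi and 7 of 10 for the combination, with median log2 fold changes of -0.11, -0.16 and -0.07. With 1 library left out these medians ran from -0.26 (without ERKi 3) to 0.05 (without vehicle 3) in ERKi, from -0.52 (without CDKi 3) to -0.03 (without vehicle 3) in CDKi and from -0.31 (without combination 3) to 0.13 (without combination 1) for the combination, so that single libraries decide their size and, except in CDKi, their sign. Over all genes tested 49.96% were on the lower side in ERKi, 51.8% in CDKi and 43.6% for the combination, with medians of 0.00, -0.01 and 0.04. With edgeR's quasi-likelihood test and Benjamini-Hochberg adjustment over 15385 genes, 0 members passed an adjusted p of 0.05 in ERKi (background 0% of all genes), 0 in CDKi (background 0%) and 0 in the combination (background 0.123%). DESeq2 also called 0 members. Over all 15385 genes it called 272 for the combination against vehicle, where 1 member had no adjusted p. For the single drugs it called 30 genes after CDKi and 2 after ERKi. At an unadjusted p under 0.05 the counts of members were 0 in ERKi (background 6.34%), 0 in CDKi (background 3.12%) and 1 in the combination (background 11.5%). The test for any difference among the 4 groups called 0 members (background 0%), and 0 members had an unadjusted p under 0.05 in it (background 8.14%).

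**Figure D1:**
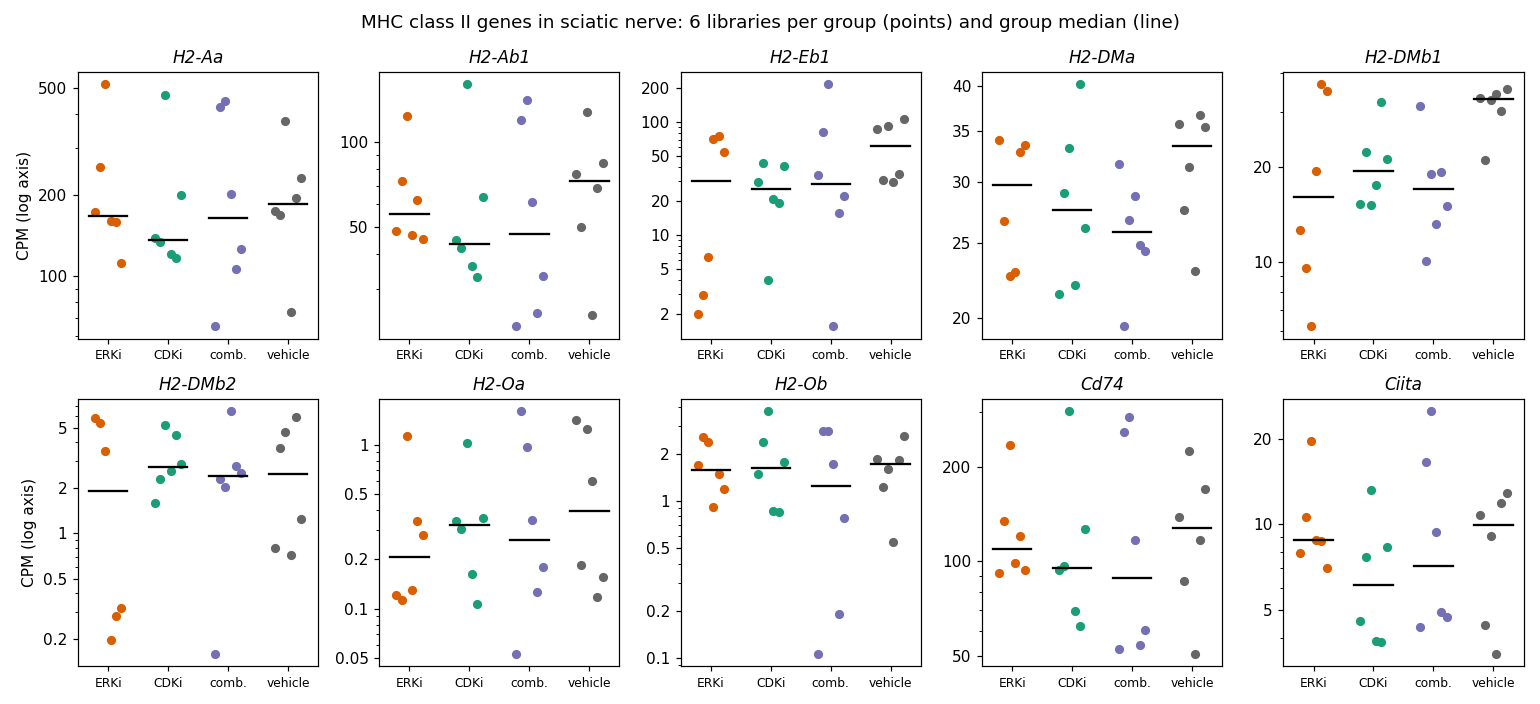
CPM of each member (log axis) in the 6 libraries of ERKi, CDKi, combination and vehicle, with points for libraries and lines for group medians. Every panel shows groups that overlap, with a narrow spread for H2-DMa and a 139-fold range over libraries for H2-Eb1.

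Levels per kilobase of exon placed Cd74 first, with a median of 64.4 CPM per kb over the 24 libraries. H2-Aa followed at 45.2, H2-Ab1 at 21.6, H2-Eb1 at 16.7, H2-DMb1 at 12.1 and H2-DMa at 8.17 CPM per kb. H2-DMb2 (1.46), Ciita (0.898), H2-Ob (0.307) and H2-Oa (0.209) were far lower on the same scale. Cd74 exceeded H2-Aa, H2-Aa exceeded H2-Ab1, H2-DMa exceeded H2-DMb2 and Ciita exceeded H2-Ob in 24 of 24 libraries. Other neighbours in this order changed places between libraries: H2-Ab1 exceeded H2-Eb1 in 15 libraries, H2-Eb1 exceeded H2-DMb1 in 14, H2-DMb2 exceeded Ciita in 15 and H2-Ob exceeded H2-Oa in 15. H2-DMb1 exceeded H2-DMa in 19. The length used was the union of all annotated exons of a gene, 3798 bases for H2-Aa and 1679 for Cd74, and may exceed that of the main transcript. The place of Cd74 depends on it: before division by length the median was 171.6 CPM for H2-Aa and 108.1 for Cd74.

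The A molecule's genes and the invariant chain had closely similar profiles over the groups. H2-Aa, for the alpha chain, had 113, 167 and 519 CPM (lowest, median and highest of 6) in ERKi, 117, 137 and 474 in CDKi, 65.1, 164 and 449 in the combination, and 73.7, 185 and 379.5 in vehicle. H2-Ab1, for the beta chain, had 45.1, 55.4 and 124 CPM in ERKi, 33.3, 43.4 and 161 in CDKi, 22.1, 47.2 and 141 in the combination, and 24.4, 72.9 and 128 in vehicle. Cd74 had 92.1, 109.9 and 235 CPM in ERKi, 62.4, 95.2 and 301 in CDKi, 52.6, 88.6 and 289 in the combination, and 50.9, 128 and 225 in vehicle. The highest library of each treated group was also the highest for all 3 genes (ERKi 3 and CDKi 3 in their groups, combination 3 in its own), while combination 1 was the lowest of all libraries for H2-Aa and H2-Ab1. ERKi 3 and CDKi 3 are among the 3 libraries rich in Alb, and without these 3 the log2 fold change of H2-Aa was -0.24 in ERKi and -0.50 in CDKi, neither of which passed. The log2 fold changes of H2-Aa were 0.17 ± 0.49 in ERKi, -0.05 ± 0.49 in CDKi and 0.17 ± 0.49 for the combination (SE, n = 6 libraries a group, edgeR, adjusted p = 0.910, 1.00 and 0.933). The 95% interval for H2-Aa in ERKi ran from -0.84 to 1.19. Intervals for H2-Ab1 ran from -1.12 to 0.90 for ERKi, -1.19 to 0.83 for CDKi and -1.11 to 0.91 for the combination. For Cd74 they ran from -0.99 to 0.95 for ERKi, -1.04 to 0.90 for CDKi and -0.89 to 1.05 for the combination. Each of these intervals spans both directions, and the smallest adjusted p was 0.949 for H2-Ab1 and 0.969 for Cd74 (edgeR). Group accounted for 1.1% of the variance of log2 CPM of H2-Aa, 1.2% for Cd74 and 2.8% for H2-Ab1, against a median of 13.8% over all genes tested.

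H2-Eb1, for the beta chain of the E molecule, was the member that varied most. It had 1.99, 30.2 and 76.0 CPM in ERKi, 4.02, 25.4 and 43.1 in CDKi, 1.56, 28.1 and 217 in the combination, and 29.8, 61.2 and 106 in vehicle. Vehicle held no library under 29.8 CPM, whereas 3 ERKi libraries, 1 CDKi library and 1 combination library were at or under 6.38 CPM. The log2 fold change was -0.84 ± 0.89 in ERKi, -1.27 ± 0.90 in CDKi and -0.03 ± 0.88 for the combination (SE, edgeR, adjusted p = 0.728, 1.00 and 0.993). In CDKi all 6 libraries lay under the vehicle mean, and the interval still ran from -3.12 to 0.59.

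Among the DM genes H2-DMa was even across libraries, whereas H2-DMb2 spanned a 40.2-fold range. H2-DMa, the alpha chain, had 22.7, 29.7 and 34.1 CPM in ERKi, 21.4, 27.6 and 40.3 in CDKi, 19.5, 25.8 and 31.7 in the combination, and 22.96, 33.4 and 36.7 in vehicle. Its highest library was 2.07 times its lowest, and its log2 fold changes were -0.14 ± 0.16, -0.14 ± 0.16 and -0.28 ± 0.16 (SE) in ERKi, CDKi and the combination, with adjusted p = 0.757, 1.00 and 0.526 (edgeR). H2-DMb1, a beta chain, had 6.20, 16.1 and 37.0 CPM in ERKi, 15.2, 19.5 and 32.4 in CDKi, 10.04, 17.1 and 31.5 in the combination, and 21.1, 33.2 and 35.6 in vehicle. All 3 treated groups had medians under the lowest vehicle library. Treated libraries above that library were ERKi 5 and 6 (37.0 and 35.2 CPM), CDKi 2, 5 and 6 (22.5, 32.4 and 21.3 CPM) and combination 1 (31.5 CPM). The log2 fold changes of H2-DMb1 were -0.64 ± 0.35 in ERKi, -0.59 ± 0.35 in CDKi and -0.79 ± 0.35 for the combination (SE), with adjusted p = 0.672 in ERKi and 1.00 in CDKi (edgeR). In the combination the interval ran from -1.51 to -0.07, 5 of 6 libraries lay under the vehicle mean, and the unadjusted p of 0.0327 became an adjusted p of 0.369 (edgeR). It was the only member with an unadjusted p under 0.05 in any of the comparisons. Group accounted for 28.0% of its variance. H2-DMb2, the second beta chain, had 0.196, 1.91 and 5.80 CPM in ERKi, 1.60, 2.72 and 5.18 in CDKi, 0.160, 2.40 and 6.41 in the combination, and 0.714, 2.46 and 5.86 in vehicle. Its log2 fold changes were -0.12 ± 0.76, 0.18 ± 0.75 and -0.05 ± 0.76 (SE) in ERKi, CDKi and the combination, with a smallest adjusted p of 0.966 (edgeR). H2-DMb1 and H2-DMb2 share 369 stretches of 50 bases (22.7% and 21.2% of those in each), so the split of reads between them is uncertain.

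Of the DO genes, H2-Oa lay near the limit of detection. H2-Oa was at or under 3 counts in 10 of 24 libraries, with at most 21 counts in a library. It had 0.114, 0.205 and 1.13 CPM in ERKi, 0.107, 0.325 and 1.02 in CDKi, 0.0532, 0.263 and 1.60 in the combination, and 0.118, 0.395 and 1.42 in vehicle. H2-Ob, the other chain, was at or under 3 counts in 2 of 24 libraries, with at most 55 counts. H2-Ob had 0.914, 1.59 and 2.56 CPM in ERKi, 0.859, 1.63 and 3.75 in CDKi, 0.106, 1.26 and 2.81 in the combination, and 0.549, 1.72 and 2.59 in vehicle. The smallest adjusted p of H2-Oa against vehicle was 0.765, in ERKi, and that of H2-Ob was 0.926, in the combination (edgeR). H2-Oa overlaps the antisense gene BC051537, which the table also lists, H2-DMa overlaps Brd2 and Ciita overlaps Dexi, each on the opposite strand; since the strand setting is not given, reads from such overlaps cannot be told apart.

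Ciita (chromosome 16, 10480059 to 10528418, plus strand), the coactivator without which class II genes are barely transcribed, had 7.01, 8.79 and 19.6 CPM in ERKi, 3.87, 6.13 and 13.2 in CDKi, 4.36, 7.14 and 24.9 in the combination, and 3.51, 9.93 and 12.9 in vehicle. Its log2 fold changes were 0.26 ± 0.44, -0.34 ± 0.44 and 0.30 ± 0.44 (SE) in ERKi, CDKi and the combination, with adjusted p = 0.835, 1.00 and 0.864 (edgeR). The groups overlapped.

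**Figure D2:**
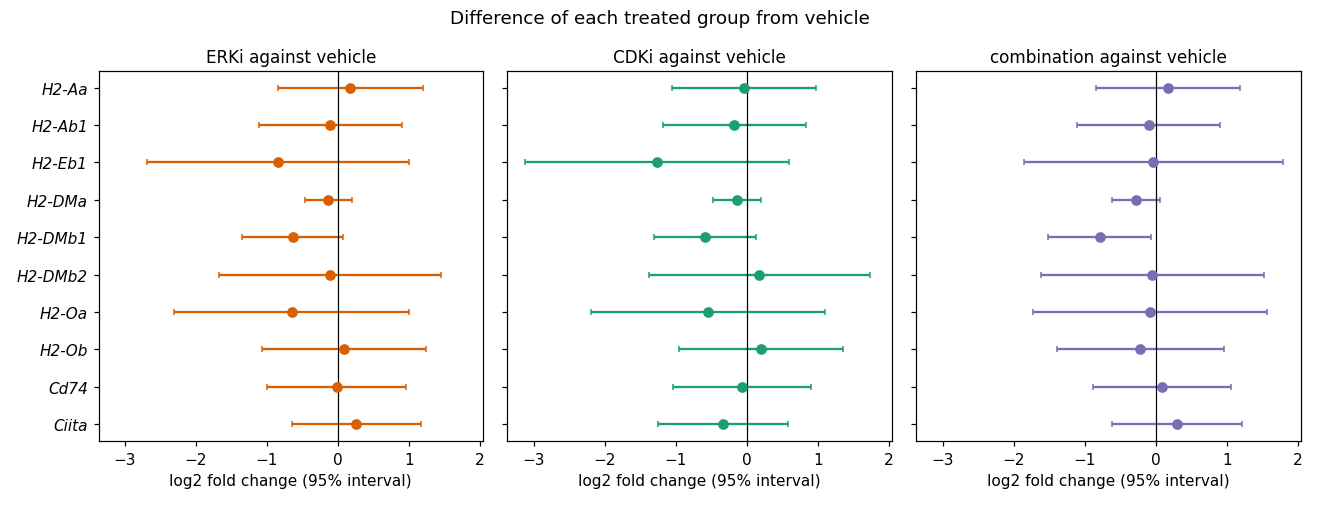
Log2 fold change of each member in ERKi, CDKi and combination against vehicle, with points for estimates and bars for 95% intervals. H2-DMb1 in the combination, at -0.79, is the only bar that ends short of 0.

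The combination was also set against each single drug, and the interaction asked whether both drugs together differed from the sum of each alone. Against ERKi the members' median log2 difference was 0.03, 0 members passed (background 0%) and 0 had an unadjusted p under 0.05 (background 9.34%). Against CDKi the median was 0.11, 0 members passed (background 0.0065%) and 0 had an unadjusted p under 0.05 (background 7.07%). For the interaction the median was 0.18, 0 members passed (background 0%) and 0 had an unadjusted p under 0.05 (background 3.69%). The widest interaction was that of H2-Eb1, at 2.07 ± 1.26 (SE, edgeR, adjusted p = 0.988), and without combination 3 it was 1.06. With 1 library left out the members' median ran from -0.22 to 0.30 for the combination against ERKi, from -0.17 to 0.60 against CDKi and from -0.05 to 0.58 for the interaction, lowest without combination 3 in each.

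Across the 24 libraries the members fell into those that followed H2-Ab1 and those that did not. The Cd74 to H2-Ab1 ratio of CPM stayed between 1.70 and 2.38 in every library while H2-Ab1 itself spanned a 7.26-fold range. The H2-Aa to H2-Ab1 ratio stayed between 2.26 and 4.33. Pearson's r of log2 CPM with H2-Ab1 was 0.989 for Cd74, 0.964 for H2-Aa, 0.879 for Ciita and 0.840 for H2-Ob (permutation p = 1e-05 each, the smallest that 100000 resamples give, adjusted p = 2.2e-05 over the 9 relations), and 0.696 for H2-Oa (permutation p = 0.00022, adjusted p = 0.000396). Spearman's rho was 0.965 for Cd74, 0.953 for H2-Aa, 0.902 for Ciita, 0.857 for H2-Ob and 0.570 for H2-Oa, each with a permutation p of at most 0.00423. Without the 2 libraries farthest from the median of H2-Ab1 (combination 3 and CDKi 3) r was 0.985 for Cd74, 0.951 for H2-Aa, 0.869 for Ciita, 0.817 for H2-Ob and 0.629 for H2-Oa. In the 18 neuron-rich libraries r was 0.986 for Cd74, 0.971 for H2-Aa, 0.862 for Ciita, 0.786 for H2-Ob and 0.631 for H2-Oa. In the 6 neuron-poor libraries it was 0.993 for Cd74, 0.963 for H2-Aa, 0.898 for Ciita, 0.946 for H2-Ob and 0.783 for H2-Oa. H2-DMa (r = 0.064, rho = 0.125, permutation p = 0.766 and 0.557), H2-DMb1 (r = -0.309, rho = -0.191, permutation p = 0.143 and 0.368) and H2-DMb2 (r = 0.343, rho = 0.309, permutation p = 0.100 and 0.141) passed no threshold. Relations were computed for the 9 other members, and values for H2-Eb1 are not given as one r because its libraries fell into separate sets.

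**Figure D3:**
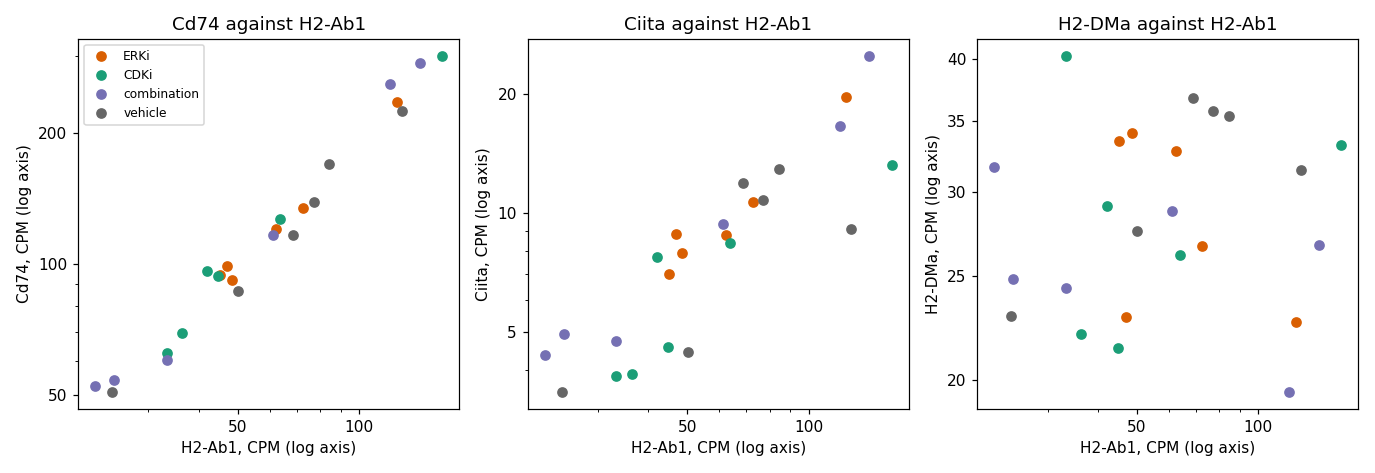
CPM of Cd74, Ciita and H2-DMa against CPM of H2-Ab1 (log axes) in the 24 libraries, coloured by group. Cd74 and Ciita follow H2-Ab1 with r of 0.989 and 0.879, while H2-DMa, with r of 0.064, stays within a 2.07-fold range.

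The H2-Eb1 to H2-Ab1 ratio was the measure that set libraries apart. It was 0.0411, 0.0407 and 0.0515 in ERKi 1, 2 and 3, 0.0250 in CDKi 3 and 0.0255 in combination 4. In the other 19 libraries it lay between 0.507 and 1.55, a gap of 9.85-fold between the highest of the 5 and the lowest of the 19. The 5 libraries had 1.56 to 6.38 CPM of H2-Eb1 but 48.5 to 161 CPM of H2-Ab1, so the A molecule's gene was not low in them. H2-Ea-ps, the partner locus of the E alpha chain, was at 4.28 to 7.36 CPM (74 to 108 counts) in those 5. At the other end 8 libraries (3 ERKi, 0 CDKi, 2 combination and 3 vehicle) held at most 3 counts of H2-Ea-ps, 7 of them 0, and their ratios were 1.13 to 1.55. The remaining 11 libraries held 8 to 54 counts of H2-Ea-ps with ratios of 0.507 to 1.03, among them vehicle 3 with 4.29 CPM of H2-Ea-ps and a ratio of 0.728. The H2-DMb2 to H2-DMb1 ratio was 0.341 to 0.566 in the same 5 libraries and 0.00507 to 0.106 in the same 8, and H2-DMb1 was 6.20 to 15.2 CPM in the 5 and 10.04 to 37.0 in the 19. ERKi was split 3 against 3 by the H2-Eb1 to H2-Ab1 ratio, which was under 0.06 in 3 of its libraries and over 1 in 3. The H2-DMb2 to H2-DMb1 ratio was 0.459 to 0.566 in ERKi 1, 2 and 3, and 0.00769 to 0.0100 in ERKi 4, 5 and 6. The labels give no strain or MHC haplotype, and its part in these values was not tested. With H2-Ea-ps in the model, chosen after the data were seen, the log2 fold change of H2-Eb1 was -1.63 in ERKi, -0.67 in CDKi and -0.18 for the combination, and none passed. In the same fit H2-DMb2 was at -1.17 in ERKi, -0.65 in CDKi and -0.41 for the combination, and none passed. H2-DMb1 was at -0.73 in ERKi, -0.19 in CDKi and -0.74 for the combination in that fit, and none passed, so its CDKi value was nearer to 0 than the -0.59 found without the covariate.

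**Figure D4:**
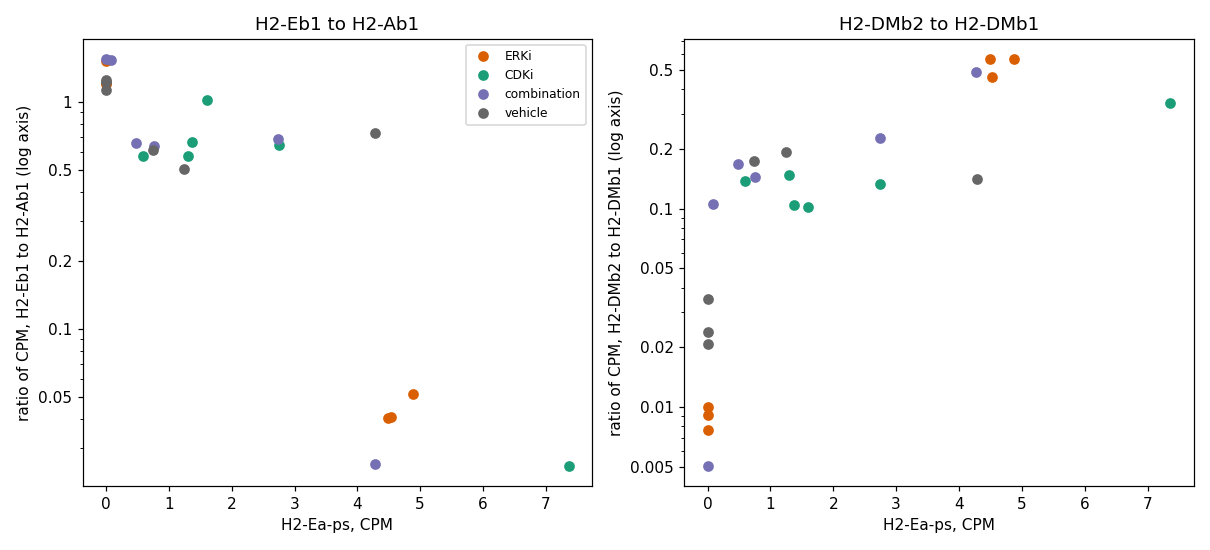
Ratio of H2-Eb1 to H2-Ab1 and of H2-DMb2 to H2-DMb1 (CPM, log axes) against CPM of H2-Ea-ps in the 24 libraries, coloured by group. The 5 libraries with a ratio of H2-Eb1 to H2-Ab1 under 0.06 lie at or above 4.28 CPM of H2-Ea-ps, where vehicle 3, at 4.29 CPM, has a ratio of 0.728.

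**Figure D5:**
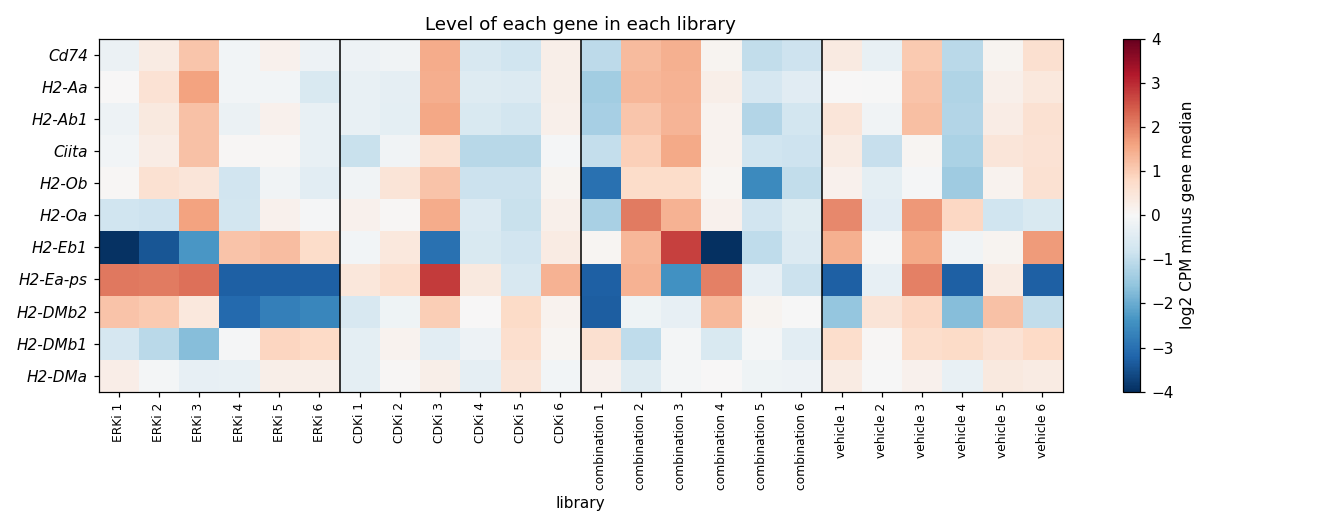
Log2 CPM of each member and of H2-Ea-ps minus the gene's median, by library, with lines between ERKi, CDKi, combination and vehicle. H2-Eb1 and H2-DMb2 show blocks of low libraries that are not shared with Cd74, H2-Aa and H2-Ab1.

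Over the 24 libraries the summed CPM of 5 general leukocyte markers (85.7 to 179.5 in ERKi, 62.3 to 182 in CDKi, 48.2 to 210.1 in the combination and 85.1 to 139 in vehicle) followed H2-Ab1 with r of 0.904 and rho of 0.922 (permutation p = 1e-05 each, adjusted p = 4e-05 over 4 relations, r = 0.871 without combination 3 and CDKi 3). Macrophage markers, at 494 to 655 CPM in ERKi, 464 to 1075 in CDKi, 361 to 956 in the combination and 581 to 759.9 in vehicle, gave r of 0.692 and rho of 0.626 (permutation p = 0.00016 and 0.00156, r = 0.548 without those libraries). B cell markers gave r of 0.717 and rho of 0.747 (permutation p = 0.00011 and 7e-05) at sums of a few CPM, and dendritic cell markers gave r of -0.146 and rho of -0.055 (permutation p = 0.491 and 0.799). The dendritic cell sum is mostly Fscn1, at a median of 104.8 CPM (33.8 to 210.6), which is not particular to dendritic cells, so its r says little of these cells. These 4 relations were added after the data had been seen; adjusted over the 4, p of r was 0.000213 for macrophage and for B cell markers. In the neuron-rich libraries r was 0.843 for leukocyte and 0.530 for macrophage markers, and in the neuron-poor libraries it was 0.987 and 0.988. The part of leukocyte content in the class II levels was not tested. The 8 genes outside the family most like the mean of H2-Aa, H2-Ab1, H2-Eb1 and Cd74 over the 24 libraries, among 13178 genes with a mean log2 CPM of at least 1, were Plbd1 (r = 0.861), Epsti1 (0.843), Parp11 (0.840), Cd52 (0.821), Pik3cg (0.801), Aif1 (0.793), Ctss (0.790) and Samsn1 (0.789). The ranking depends on H2-Eb1, whose libraries fall into separate sets: with the mean of H2-Aa, H2-Ab1 and Cd74 alone, a choice made after the data were seen, r of Parp11 was 0.671, and the 8 most alike were Plbd1 (0.905), Ctss (0.904), Sash3 (0.887), Skap2 (0.885), Fcrls (0.877), Laptm5 (0.862), Lyn (0.861) and Cysltr1 (0.861), of which Plbd1 and Ctss stand in both rankings. Ctss encodes the cathepsin that cuts the invariant chain, Cd52 a leukocyte surface glycoprotein and Aif1 the macrophage protein Iba1.

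Other genes of the pathway were read beside the members in 3 lists. Of 20 regulators of class II, among them the interferon gamma receptor chains, 19 were tested and 0 passed in ERKi, CDKi or the combination with edgeR on the 24 libraries, with median log2 fold changes of -0.11, -0.06 and -0.01. Ifngr2, a receptor chain, averaged 59.1 ± 1.53 CPM (SD) in the combination and 76.5 ± 11.3 (SD) in vehicle. Its log2 fold change there was -0.37 ± 0.11 (SE, edgeR, adjusted p = 0.153). Ifngr1 had a log2 fold change of -0.46 ± 0.19 in ERKi (SE, adjusted p = 0.672). All 12 proteases and lysosomal genes were tested and 0 passed; Ctsc, which encodes cathepsin C, had log2 fold changes of -0.36, -0.25 and -0.38 in ERKi, CDKi and the combination. Of 10 genes of costimulation and T cell contact 6 were tested and 0 passed, among them Cd86 at -0.50 in ERKi (adjusted p = 0.672) and Cd80 at -0.59 in the combination (adjusted p = 0.596).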

How the data were processed

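For 24 libraries of sciatic nerve the authors deposited unscaled counts per gene, without pooling. STAR, FastQC, DESeq2 and genome mm10 are named per the submitters' processing notes; how reads were counted, with which annotation and whether by strand, is not given in the sources used here. Per the labels' protocols 100 ng of total RNA went into KAPA libraries with removal of ribosomal RNA and 15 cycles of amplification, while the molecule label reads polyA. Groups came from the treatment label, and numbers within a group only name libraries. Members and lists were chosen with earlier results of these data known.

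Counts were analysed with edgeR 4.0.16 in R 4.3.3: filterByExpr (minimum count 10, minimum total 15), TMM scaling and a robust quasi-likelihood fit with group means over the 24 libraries, leaving 20 residual degrees of freedom and 15385 genes. The common biological coefficient of variation over all genes was 35.9%. Among the members it ran from 20.8% for H2-DMa, the only member under the common value, to 97.6% for H2-Eb1. Intervals are the log2 fold change and its standard error with the t distribution, two-sided p-values were adjusted over all genes, and the script was tested on simulated data. CPM are TMM-scaled, log2 CPM use a prior count of 2, and permutation tests used 100000 resamples. Named outside the members were, per list and contrast with vehicle, the 2 genes with the smallest p (results for some genes are not reported here), and the 8 genes most like the mean of 4 members. Exon lengths and positions came from GENCODE M21 (23376 symbols, 95.7%, matched) and promoters from RefSeq. A longer form of the X box letters was tried first and matched the same 4 members but fewer of all promoters; the shorter form is the one given. A chi-square test of counts between libraries of a group (60 pairs) gave at least 19.8 per degree of freedom, above the level of sampling noise expected where one library is deposited under both names; this does not show whether libraries came from separate animals. Alternatives were RLE scaling, DESeq2 1.42.0, no filter, only the groups compared, added terms for the titles' number series, the neuron list and (added after seeing the data) H2-Ea-ps, leaving out the 3 libraries above 100 CPM of Alb, and leaving out each library. Intervals come from the fit and include the spread between libraries, while the floors of 3 counts cover counting error only.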

Additional observations from a re-analysis of the deposited data

Results flagged for a closer look

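Of 40 groups of 6 values of log2 CPM (10 members in 4 groups) 3 held a library farther from the rest than Dixon's 95% limit allows, where chance gives about 1 in 20 groups. The limit was applied on the log2 scale, which spreads low values, and the levels are given below as CPM. H2-Eb1 was 4.02 CPM in CDKi 3, low against 19.3 to 43.1 CPM in the other 5 CDKi libraries. H2-DMb2 was 0.160 CPM in combination 1, low against 2.01 to 6.41 CPM in the other 5 combination libraries. H2-DMb1 was 21.1 CPM in vehicle 2, low against 30.3 to 35.6 CPM in the other 5 vehicle libraries.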

How the results depend on the processing

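The count of members past an adjusted p of 0.05 was 0 in every comparison under every alternative run, DESeq2 included (which gave no adjusted p for H2-Oa in 3 comparisons). The depth of 5391543 to 42321550 counts and the spread between libraries limit what could be called, and members such as H2-Oa lie near the floor. Of 780 values under the alternatives 749 were counted as kept, and of 2424 values with a library left out 2271 were. Log2 values of single genes had to keep direction and side of the threshold, and tests for any difference only the side. Counts of members called had to stay equal. Medians over the members had to move by less than 0.561, the pooled SD within groups of the libraries' member means, so their sign could change. The median log2 value of the interaction over the members was 0.89 without the 3 libraries above 100 CPM of Alb, against 0.18 with them. With no count filter, the log2 values on the other side of 0 were H2-Aa 0.0051 in combination against ERKi. With the number series of the titles as a term, the log2 values on the other side of 0 were H2-Aa -0.19, H2-Ob -0.18 and Ciita -0.0084 in ERKi against vehicle, H2-Ob -0.019 in CDKi against vehicle, H2-Aa -0.10 and Cd74 -0.20 in combination against vehicle, H2-Aa 0.087 in combination against ERKi. Without the 3 libraries above 100 CPM of Alb, the log2 values on the other side of 0 were H2-Aa -0.24, H2-Ob -0.034 and Ciita -0.019 in ERKi against vehicle, H2-Ob -0.12 in CDKi against vehicle, H2-Aa 0.41 in combination against ERKi, H2-DMb2 0.046 in the interaction. With a neuron list covariate, the log2 values on the other side of 0 were H2-DMb2 0.061 and Cd74 0.049 in ERKi against vehicle, H2-Oa 0.037 in combination against vehicle, H2-Ab1 -0.061, H2-DMb2 -0.065 and Ciita -0.030 in combination against ERKi. With H2-Ea-ps as a covariate, the log2 values on the other side of 0 were H2-Aa -0.038 and H2-Ob -0.15 in ERKi against vehicle, H2-DMb2 -0.65 and H2-Ob -0.26 in CDKi against vehicle, H2-Aa 0.11 in combination against ERKi, H2-DMb2 0.25 in combination against CDKi, H2-DMb2 1.42 in the interaction. With only the groups compared, the log2 values on the other side of 0 were H2-Aa 0.013 in combination against ERKi. With each library left out in turn, the log2 values of these members crossed 0. In CDKi against vehicle they were Cd74 -0.53 to 0.17, H2-Aa -0.51 to 0.24, H2-Ab1 -0.69 to 0.077, H2-DMb2 -0.021 to 0.56 and H2-Ob -0.11 to 0.41. In combination against CDKi they were Cd74 -0.22 to 0.62, H2-Aa -0.11 to 0.68, H2-Ab1 -0.31 to 0.59, H2-DMb2 -0.71 to 0.013 and H2-Oa -0.26 to 1.01. In combination against ERKi they were Cd74 -0.24 to 0.36, Ciita -0.38 to 0.32, H2-Aa -0.30 to 0.41, H2-Ab1 -0.34 to 0.28, H2-DMb1 -0.38 to 0.14, H2-DMb2 -0.39 to 0.50, H2-Eb1 -0.19 to 1.22 and H2-Oa -0.12 to 1.34. In combination against vehicle they were Cd74 -0.27 to 0.30, Ciita -0.14 to 0.47, H2-Aa -0.14 to 0.44, H2-Ab1 -0.47 to 0.14, H2-DMb2 -0.53 to 0.32, H2-Eb1 -1.03 to 0.23, H2-Oa -0.81 to 0.44 and H2-Ob -0.55 to 0.036. In ERKi against vehicle they were Cd74 -0.28 to 0.19, Ciita -0.020 to 0.39, H2-Aa -0.24 to 0.43, H2-Ab1 -0.38 to 0.11, H2-DMb2 -0.56 to 0.25 and H2-Ob -0.11 to 0.27. In the interaction they were Cd74 -0.19 to 0.65, Ciita -0.056 to 0.67, H2-Aa -0.27 to 0.52, H2-Ab1 -0.19 to 0.71, H2-DMa -0.078 to 0.10 and H2-DMb2 -0.58 to 0.32. The cause of these crossings was not tested. No paired analysis was possible because the numbers within a group were given in accession order and pair no samples.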

Other observations

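The 20 genes whose log2 CPM was most related to the log2 ratio of H2-Eb1 to H2-Ab1 over the 24 libraries, ranked by the size of Pearson's r among 13178 genes, included 12 on chromosome 17, all starting between 32.9 and 47.4 Mb (GRCm38). Chromosome 17 holds 4.78% of the ranked genes with a position. AA388235, which ranked first and ranged from 0 to 31.1 CPM, and Rqcd1 were among the 20 but had no position. Of the 12, 8 were higher where the ratio was higher and 4 were lower. H2-K2, a class I pseudogene, ranged from 0.188 to 10.4 CPM, and H2-T10, a class I gene, from 2.08 to 15.1 CPM. Since the ratios fall into separate sets, r served only to rank genes here.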
